A study of Homo sapiens with 6 samples.

Results

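Rare circular RNAs (circRNAs) made up 13594 of the 26209 circRNAs, 51.9%, that 6 libraries of HaCaT cells listed between them. They were chosen by one measured value alone, the number of the 6 deposited tables that list a circRNA: 8530 were listed in exactly 1 library and 5064 in exactly 2. The choice used no treatment label, and it fixes that these circRNAs are seldom listed, which is therefore a description and not a result. HaCaT is an established line of human keratinocytes, labelled WT. The 3 sham libraries came from sham-irradiated cells and the 3 UVA libraries from cells given 5 J/cm2 of UVA, with RNA taken 6 h later in both. All 6 libraries come from this 1 line, and the labels do not say whether replicates were separate cultures, so p-values refer only to these libraries. The deposited identifiers carry no gene name, position or sequence, so host genes, sequences and keratinocyte markers were not analysed here.

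A circRNA forms when a downstream splice site of a transcript is joined to an upstream one, which closes the RNA into a loop without free ends. Such loops resist nucleases that start at RNA ends, among them RNase R, which the labels' protocols name in the preparation of these RNAs. The only reads that mark a loop are those that cross the back-splice junction, so a scarce circRNA rests on very few reads. A circRNA with no entry in a table is called unlisted here. It is not the same as absent, because the smallest value in any table was 2 reads.

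Depth differed between the libraries and has to be read beside every number below. The library totals behind the deposited values ran from 64555 reads in UVA replicate 1 and 91053 in sham replicate 2 to 361024 in UVA replicate 3. The smallest listable value, 2 reads, stood for 31.0 TPM in UVA replicate 1 and for 5.54 TPM in UVA replicate 3. Over the 3472 circRNAs listed everywhere, the first principal component (38.1% of the variance of log2 TPM) placed the 2 shallowest libraries at 25.0 and 31.5 and the others between -19.4 and -4.35. Each treatment holds 1 of these 2 libraries. Values without them are given beside the comparisons of the groups.

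Most entries of rare circRNAs held 2 or 3 reads: of 18658 entries, 42.7% had 2 and 25.1% had 3. Of the 8530 single-library entries, 4069 (47.7%) had 2 reads, 2171 (25.5%) had 3 and 2207 (25.9%) had 4 to 9. Only 83 (0.973%) had 10 or more reads and 7 had 20 or more, and the highest value was 51 reads. The 2-library circRNAs gave 10128 entries, of which 38.4% had 2 reads, 24.8% had 3, and 2.63% had 10 or more. Their highest value was 420 reads, and 8 of their entries had 100 or more, a level that no single-library circRNA reached. Just outside the limit of the choice, circRNAs listed in 3 libraries had 29.8% of entries at 2 reads and a mean of 4.45 reads, against 3.85 just inside it, in 2 libraries, and 3.11 in 1. Those listed in all 6 libraries had a median of 14 reads and 63.7% of entries at 10 or more.

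**Figure D1:**
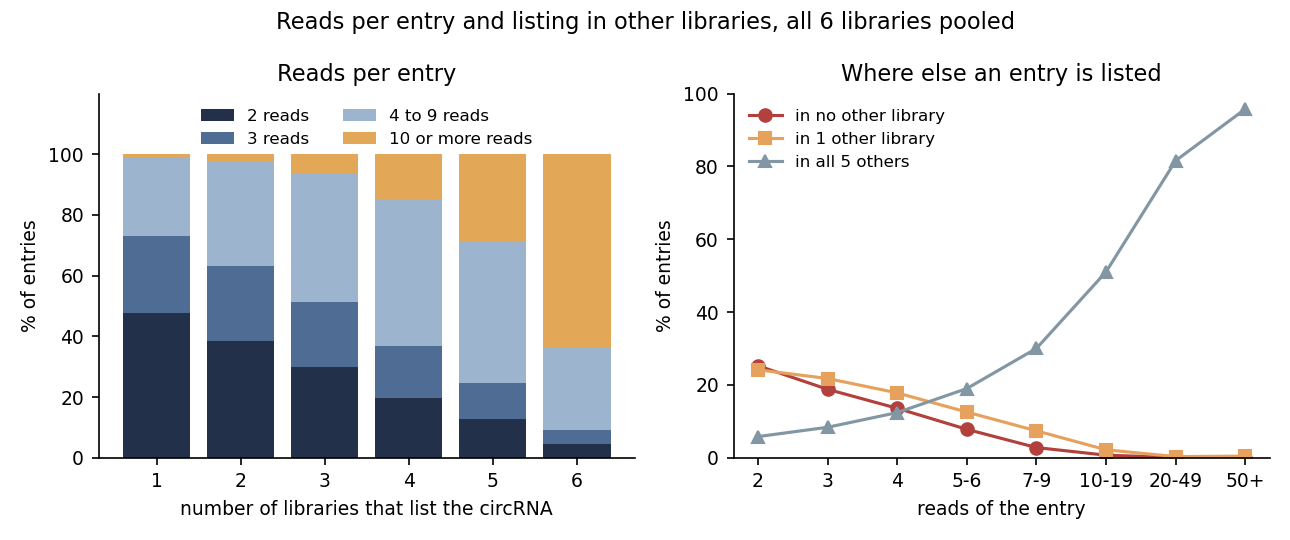
Left: share of entries (%) with 2, 3, 4 to 9, and 10 or more reads, by the number of libraries that list the circRNA. Right: share of entries (%) listed in no other library, in 1 other, or in all others, by the reads of the entry (all 6 libraries pooled); 2-read entries were in no other library in 25.3% of cases, entries of 10 to 19 reads in 0.723%.

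Seen from the reads, an entry of 2 reads was listed in no other library in 25.3% of 16092 cases and in 1 other in 24.2%. For entries of 5 or 6 reads these shares were 7.82% and 12.6%, and for 10 to 19 reads 0.723% and 2.20%. The decline did not continue to 0 for the 2-library circRNAs. They made up 0.334% of entries of 20 to 49 reads and 0.482% of those with 50 reads or more, 14 of 2904 entries.

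Rare circRNAs were a large part of each library's diversity and a small part of its reads, and both parts were largest in the deepest library. They numbered 4348, 1165 and 2328 in sham replicates 1 to 3, and 773, 2909 and 7135 in UVA replicates 1 to 3. As shares of the circRNAs that each library listed, this was 28.3%, 13.9% and 19.2% in sham and 11.6%, 22.0% and 37.4% in UVA. UVA replicate 3 thus stood above every other library and UVA replicate 1 below, and the ranges of the 2 groups overlapped. Their reads were 7.48%, 4.11% and 5.37% of the listed reads in sham and 4.01%, 6.18% and 9.44% in UVA. Over all libraries they held 24.9% of the entries and 7.12% of the reads.

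**Figure D2:**
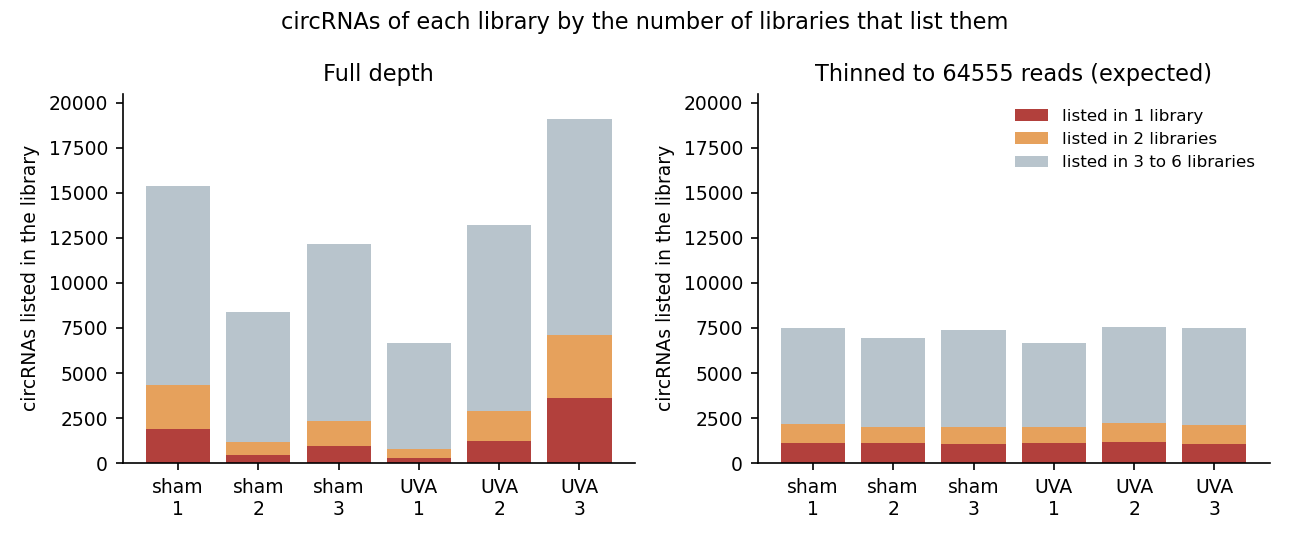
Number of circRNAs listed in each library (bars; vertical axis, circRNAs), split by how many of the 6 libraries list them, at full depth (left) and as calculated for thinning to 64555 reads (right). The rare part runs from 773 to 7135 circRNAs at full depth and from 1979 to 2205 at equal depth.

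Sham and UVA libraries did not differ detectably in how many rare circRNAs they listed. A sham library listed 2614 ± 1611 of them and a UVA library 3606 ± 3238 (mean ± SD, n = 3 per group). The gap of 992 was smaller than either SD (two-sided exact permutation, p = 0.7). Their share of listed circRNAs was 20.4% ± 7.27 against 23.6% ± 13.0 (p = 0.7 by the same exact test), and their share of listed reads 5.66% ± 1.71 against 6.54% ± 2.73 (p = 0.7, exact test). The smallest p that 3 against 3 libraries can give is 0.1. All 3 differences turned negative without UVA replicate 3, to -773 circRNAs, -3.67 percentage points of the listed circRNAs and -0.561 of the reads. The share of listed circRNAs also did so, at -0.082, without sham replicate 2. Without the 2 shallowest libraries, with 2 libraries per group, the gaps were 1684 circRNAs, 5.96 percentage points of the listed circRNAs and 1.38 of the reads.

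The number of single-library circRNAs followed the library total. In order of rising total, 312, 466, 979, 1243, 1908 and 3622 circRNAs were listed in 1 library alone, so that the 6 libraries stood in the same order by both measures. Pearson's r was 0.993 (exact permutation p = 0.00139) and Spearman's rho was 1 (exact permutation p = 0.00278, n = 6). Adjusted over the 8 relations with depth that were computed, these p-values were 0.00278 and 0.00556 (Benjamini-Hochberg). Without UVA replicates 1 and 3, the libraries farthest from the median total, r was 0.993 over 4 libraries. The number also rose faster than the total: it was 4.83 per 1000 reads of the total in the shallowest library and 10.0 in the deepest. The totals include the reads of the circRNAs counted.

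**Figure D3:**
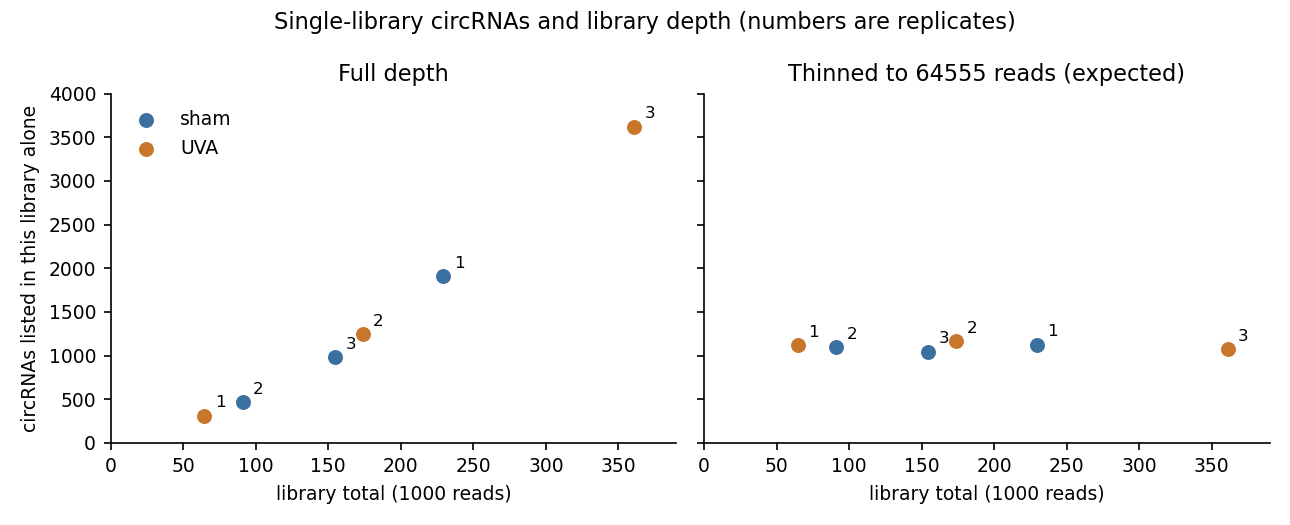
Number of circRNAs listed in a single library (vertical axis) against that library's total (horizontal axis, in 1000 reads), for 3 sham and 3 UVA libraries, each labelled with its replicate number. At full depth (left) the points run from 312 to 3622; after thinning to 64555 reads (right) all lie between 1045 and 1166.

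At equal depth the libraries held nearly equal numbers of rare circRNAs. For this, the number expected after binomial thinning of every library to 64555 reads was worked out, counting 2 or more reads as listed and recounting which circRNAs were rare. Single-library circRNAs then numbered 1126, 1099 and 1045 in sham replicates 1 to 3 and 1120, 1166 and 1074 in UVA replicates 1 to 3. The spread of 312 to 3622 at full depth had narrowed to 1045 to 1166, and the order of the single-library numbers no longer followed the totals (r = -0.20, exact permutation p = 0.706; rho = 0.0286, exact permutation p = 1.00, n = 6; r = 0.345 over the 4 libraries nearest the median total). With the 2-library circRNAs added, a sham library held 2064 ± 83.8 and a UVA library 2095 ± 113 (mean ± SD, n = 3 per group). This gap of 31.1 was smaller than either SD (two-sided exact permutation, p = 0.8), and was -23.7 without UVA replicate 2 and 60.1 without the 2 shallowest libraries. Over single-library and 2-library circRNAs together, the number at equal depth still leaned with the total (r = 0.554, exact permutation p = 0.256; rho = 0.771, exact permutation p = 0.103, n = 6; r = 0.745 over the 4 libraries nearest the median total), without passing the test. Rare circRNAs were then 28.4% ± 0.845 of the circRNAs of a sham library and 28.9% ± 0.791 of those of a UVA library (p = 0.5, exact permutation).

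The same held for the groups as a whole. At full depth 3353 single-library circRNAs (39.3%) came from a sham library and 5177 (60.7%) from a UVA library, while the UVA libraries held 55.8% of the summed totals. At equal depth the expected numbers were 3270 (49.3%) and 3360 (50.7%). These are sums over 3 libraries and carry no error.

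New circRNAs were still being added with the last library. Averaged over all orders of the libraries, 1 library listed 12488 circRNAs, 3 listed 20749 and 6 listed 26209, and the sixth added 1422. At equal depth the sixth added 1105 to a total of 16316. The Chao2 estimator, which predicts unseen kinds from the numbers found in exactly 1 and exactly 2 libraries, gave 32196 ± 173 circRNAs (SE from its formula), so that 81.4% would have been listed. It treats the libraries as equal samples, which their depths were not, and at equal depth it gave 22579. Its estimate therefore depends on depth and is not a count of the circRNAs in the cells. Within groups at equal depth it gave 16711 ± 155 for the 3 sham libraries and 16846 ± 155 for the 3 UVA libraries (SE), a gap smaller than either SE.

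Pairs of libraries that shared a rare circRNA did not follow the treatment. Of the 5064 circRNAs listed in exactly 2 libraries, 586 (11.6%) were shared by 2 sham libraries, 1162 (22.9%) by 2 UVA libraries and 3316 (65.5%) by 1 of each. The counts ran from 23 for sham replicate 2 with UVA replicate 1, the shallowest pair, to 1419 for sham replicate 1 with UVA replicate 3, the deepest. A model with 1 term per library, and none for treatment, fitted 1413 for that deepest pair and 24.8 for the shallowest. It fitted 574 sham, 1150 UVA and 3339 mixed pairings in all. The observed counts were 1.02, 1.01 and 0.993 times these.

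With a term for treatment, same-treatment pairs shared 1.03 times as many as mixed ones, a log2 ratio of 0.036 (exact permutation over the 10 partitions of the libraries, p = 0.7, two-sided; the smallest possible is 0.1). At equal depth the log2 ratio was -0.029 (exact permutation p = 0.7), with 39.4% of the shared circRNAs in the 6 same-treatment pairs, which are 40.0% of the 15 pairs. Its sign also turned without sham replicate 3 (-0.018) and without UVA replicate 2 (-0.032). Without the 2 shallowest libraries it was 0.060. In single pairs the observed count was 0.833 to 1.22 times the fitted one at full depth. At equal depth this range was 0.921 to 1.15, and its upper end was the pair of the 2 shallowest libraries, with 175 expected against 152 fitted. That is the pair set apart on the first principal component, and it is a mixed pair.

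**Figure D4:**
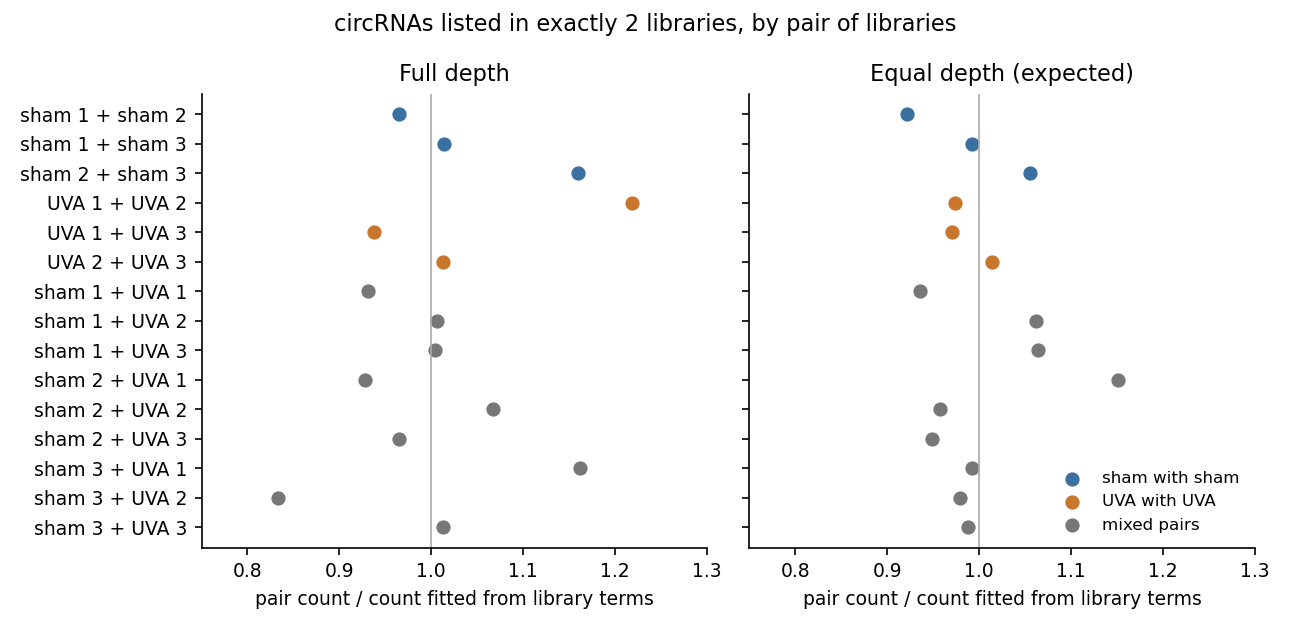
Number of circRNAs listed in exactly the 2 named libraries, divided by the number fitted from library terms alone (horizontal axis, ratio), for 3 sham, 3 UVA and 9 mixed pairs, at full depth (left) and at equal depth (right). The points of the 3 kinds of pair overlap; they span 0.833 to 1.22 on the left and 0.921 to 1.15 on the right.

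A small number of rare circRNAs were not scarce where they were listed. For each circRNA, its level over the libraries that list it was scaled to the total of each library that does not, which gives the reads it would have had there at the same level. For 1003 members (7.38%) this came to 2 or more reads in every library that left them unlisted. For the rest, at least 1 such library would have held fewer than 2 reads. Among circRNAs listed in 3, 4 and 5 libraries, 14.5%, 37.8% and 74.7% reached 2 reads in every unlisted library. The property was thus not particular to rare circRNAs. The more libraries list a circRNA, the fewer unlisted ones have to reach the limit, so these shares are not directly comparable. At 10 or more scaled reads in every unlisted library, 15 members were left, 5 from 1 library and 10 from 2. Of the 5 from 1 library, 3 were listed in UVA replicate 1, the shallowest library, with only 8 to 10 reads. Of the 10 from 2 libraries, 1 was shared by sham libraries, 3 by UVA libraries and 6 by 1 of each. Among these 10, novel_circRNA_49169 had only 2 reads in UVA replicate 1. Of the 15, sham replicate 2 listed none, and the other 5 libraries listed 4 to 6 each. Outside the choice, 10 or more scaled reads were reached by 8 of 3650, 17 of 2976 and 94 of 2517 circRNAs listed in 3, 4 and 5 libraries.

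The most abundant was novel_circRNA_45473, with 255 reads in sham replicate 1 (1112 TPM) and 420 in UVA replicate 3 (1163 TPM). It was unlisted in the other 4 libraries. At that level sham replicates 2 and 3 would have held 104 and 177 reads, and UVA replicates 1 and 2 73.8 and 199. The next mixed pairing held 139 reads in sham replicate 3 (899 TPM) and 252 in UVA replicate 3 (698 TPM). Another held 87 reads in sham replicate 1 (379 TPM) and 176 in UVA replicate 3 (488 TPM). Yet another held 60 reads in sham replicate 3 (388 TPM) and 81 in UVA replicate 2 (466 TPM), and was unlisted in the deepest library, where the same level gives 155 reads. A UVA pair described below, with a lowest scaled value of 40.3 reads, stood above the last 2 of these. The mixed pairings were picked as such. This fixes that their 2 listing libraries came from different treatments and that the other 2 libraries of each treatment left them unlisted. Whether these circRNAs were absent there or were left out in the making of the tables was not tested.

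**Figure D5:**
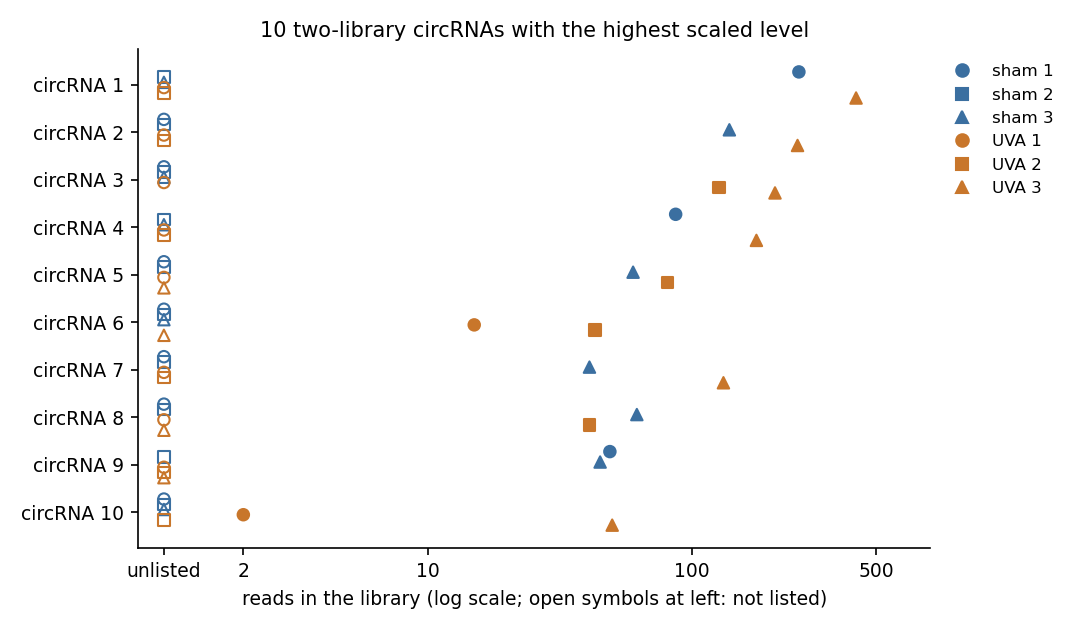
Reads per library (horizontal axis, log scale; open symbols at the left edge are unlisted) of the 10 two-library circRNAs with 10 or more scaled reads in every unlisted library, ordered by the lowest scaled value. The first, novel_circRNA_45473, has 255 and 420 reads in 2 libraries of different treatment and none listed in the other 4.

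The 2 levels of a 2-library circRNA lay within 2-fold of each other in 57.4% of cases, and in a larger share where the reads of both libraries summed to 20 or more. With 50 or more summed reads, 11 of 14 circRNAs were within 2-fold, and the median ratio of the higher to the lower TPM was 1.29. With 20 to 49 summed reads it was 44 of 54, at a median ratio of 1.42. With 10 to 19 and 4 to 9 summed reads the shares were 57.7% and 56.9%, at median ratios of 1.84 and 1.75. At 2 reads in each library the ratio is set by the 2 library totals. The share at 4 to 9 summed reads is therefore in part a matter of depth. Many reads did not always go with close levels. The widest ratio of all, 47.5, belonged to a circRNA with 61 reads in sham replicate 3 and 3 in UVA replicate 3, and another had 50 reads in UVA replicate 3 (138 TPM) and 2 in UVA replicate 1 (31.0 TPM). These ratios describe pairs of listed values and leave out the libraries in which the circRNA is unlisted.

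Treatment was tested for each circRNA on the whole table, and 5 of the 13594 rare circRNAs were called, 2 higher and 3 lower after UVA. Over all 26209 circRNAs 8 were called, 0.0305%, with 0.00763% higher and 0.0229% lower (adjusted p below 0.05 by the quasi-likelihood test of edgeR with the Benjamini-Hochberg method). The rare ones were called at 0.0368%, near that background, which includes them. Of the 12615 circRNAs listed in 3 to 6 libraries 3 were called. This nearness is that of the fit without a filter. With at least 10 reads over the 6 libraries, 5 of 980 rare circRNAs were called, against 9 of 12359 fitted in all. That filter keeps a rare circRNA only through the 1 or 2 libraries that list it. The gap between these 2 shares is therefore no result about rare circRNAs. At an unadjusted p below 0.05 there were 124 rare circRNAs (0.912%), against 278 (1.06%) in the whole table. The median fitted log2 fold change was 0.72 over the rare circRNAs and 0.17 over the whole table. It was 2.20 for those listed in 1 library, 5177 of which were in a UVA library, and 0.032 for those in 2 libraries. For a circRNA listed in 1 library, the sign is fixed by that library's treatment: 5177 were fitted higher and 3353 lower. UVA replicate 3, the deepest library, held 3622 of them. The 2.20, and the 0.72 that includes these circRNAs, are therefore no measure of a UVA effect.

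The choice allows at most 2 listed libraries, so none of the 5 calls could be listed in all 3 libraries of a group. The call with the smallest p, novel_circRNA_49546, had 127 reads in UVA replicate 2 (731 TPM) and 207 in UVA replicate 3 (573 TPM). It was unlisted in UVA replicate 1, where the same level gives 40.3 reads, and in all sham libraries, where it gives 56.9 to 143. Its log2 fold change was 9.43 ± 0.82 (SE worked back from the F statistic; edgeR quasi-likelihood test, adjusted p = 2.14e-26). The other higher one, novel_circRNA_61420, had 15 reads in UVA replicate 1 (232 TPM) and 43 in UVA replicate 2 (248 TPM) and was unlisted in UVA replicate 3, where that level gives 87.9 reads. It was unlisted in sham, and its log2 fold change was 7.58 ± 1.25 (edgeR, adjusted p = 9.36e-06).

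On the lower side, novel_circRNA_16922 had 49 reads in sham replicate 1 (214 TPM) and 45 in sham replicate 3 (291 TPM). It was unlisted in sham replicate 2, where this level gives 22.3 reads, and in all UVA libraries, where it gives 15.8 to 88.4 (log2 fold change -7.94 ± 1.12, edgeR, adjusted p = 1.45e-08). The second, novel_circRNA_13360, had 61 reads in sham replicate 3 (394 TPM) and 3 in UVA replicate 3 (8.31 TPM) and was unlisted elsewhere (log2 fold change -4.51 ± 0.91, edgeR, adjusted p = 0.00292). The third was the single-library circRNA with the most reads, 51 in sham replicate 1 (222 TPM), unlisted in both other sham libraries (log2 fold change -6.89 ± 1.5, edgeR, adjusted p = 0.0159). Its counterpart in UVA, with 28 reads in UVA replicate 2 (161 TPM) and no other listing, was not called (adjusted p = 0.688). In every call 1 or 2 libraries of the higher group were unlisted, and the choice fixes that at least 1 of them is. These fold changes set listed reads against 0 and depend on how the fit treats 0. Their SEs and p-values rest largely on a spread shared over the whole table, not on each circRNA's own spread between libraries. With 1 read in place of 0, the log2 fold change of novel_circRNA_49546 was 6.19, that of novel_circRNA_61420 4.18, that of novel_circRNA_16922 -4.94 and that of novel_circRNA_13360 -3.88, and these stayed called. That of the single-library circRNA was -3.98, no longer called (edgeR, adjusted p = 0.0588). With limma on log2(TPM + 31.0) the value of novel_circRNA_49546 was 2.97.

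The calls differed between fits. DESeq2, which also differs in size factors and test, called none of the rare circRNAs and 0.00763% of the whole table. At an unadjusted p below 0.05 it had 24 of 13594 rare circRNAs, against 234 of 26209 in the whole table. With robust dispersion as the one change to edgeR, 2 of the 5 were called, and novel_circRNA_49546 was not (adjusted p = 0.641). Over the whole table that fit called 4 circRNAs. Without the 2 shallowest libraries 11 rare circRNAs were called, the 5 among them, and 24 of 25408 over the whole table. Leaving out 1 library ended the call of novel_circRNA_61420 (without UVA replicate 2, adjusted p = 0.859) and of the single-library circRNA (without UVA replicate 2 or 3, adjusted p = 0.177 and 0.157). It also ended that of novel_circRNA_13360 without UVA replicate 2 (adjusted p = 0.108) and without sham replicate 3, where the log2 fold change was 2.69 (edgeR, adjusted p = 0.845). novel_circRNA_16922 was called in 14 of 15 alternative fits, all but DESeq2 (adjusted p from 1.84e-19 to 0.999), and novel_circRNA_49546 in 13 of 15 (1.06e-47 to 0.999).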

How the data were processed

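Back-spliced reads were counted in 3 sham and 3 UVA libraries of HaCaT cells. Per the series' design text the authors aligned reads to hg38; the submitters' processing notes name hg38 and GRCh38. The sources used here name no aligner, caller or annotation. The authors deposited, per library, expected counts (estimated reads per circRNA, unscaled; rounded here, as 1 to 4 per library were not whole) and TPM values. The deposited TPM values, so named per the file headers, are normalized within each library: they equal the count multiplied by 1 constant per library for nearly all circRNAs (relative tolerance 1e-06), with no scaling by length visible. Library totals are 1000000 divided by the smallest TPM per read. Unlisted circRNAs were set to 0. Listed reads were 84.9% to 86.3% of the totals.

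The whole table was tested without a filter, since rare circRNAs cannot pass one on 3 libraries: edgeR 4.0.16 (R 4.3.3) quasi-likelihood test, TMM, no covariate, two-sided, Benjamini-Hochberg. TMM factors were 0.800 to 1.32. The SE of an edgeR fold change is its absolute log2 value divided by the square root of the F statistic. It is not given by the fit itself and is only approximate where a group has no listed reads. Group means were compared by exact permutation of 20 relabellings. Thinning to equal depth used exact binomial probabilities, without random draws. Pair counts were fitted by a Poisson log-linear model (statsmodels 0.14.6). Alternatives used DESeq2 1.42.0 and limma 3.58.1 on log2(TPM + 31.0). Scripts were tested on simulated data. Counts carry no molecular identifiers, so a read count need not be a count of molecules.

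Named circRNAs were the called ones (the 2 with the smallest p per direction) and those with the most reads per library or kind of pair. As identifiers carry no gene, at most 2 are printed per direction, with the most abundant mixed one. The members, lists and tests were chosen with earlier results of these data known. The other mixed pairings, the limit of 10 scaled reads, the bins of reads and the second circRNA named by its ratio of levels were chosen after values were seen.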

Additional observations from a re-analysis of the deposited data

How the results depend on the processing

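The direction of the 4 comparisons of group means was not stable. With 1 library left out, the difference in rare circRNAs per library ran from -773 to 2408, in their share of listed circRNAs from -3.67 to 9.24 percentage points (it was -0.082 without sham replicate 2), in their share of reads from -0.561 to 2.15, and at equal depth from -23.7 (without UVA replicate 2) to 89.4. With the number as a replicate block the first difference was 992 (exact sign-flip permutation over 3 pairs, p = 0.75). The relation of single-library circRNAs with depth turned to r = -0.201 at equal depth. The log2 same-treatment ratio was -0.0273 with 3 or more reads counted as listed, -0.0287 at equal depth and -0.0689 for UVA pairs alone (0.140 for sham pairs), and ran from -0.0318 to 0.184 with 1 library left out. Against 5 rare circRNAs called (8 over the whole table), DESeq2 called 0 (2), limma 3 (7), the replicate block 3 (6) and robust dispersion 2 (4). The fit without the 2 shallowest libraries called 11 (24). These last 2 settings were chosen after seeing the data. With 1 library left out, 4 to 7 were called, and 6 to 15 over the whole table. Same-numbered libraries deviated from their group means with correlations of -0.263, -0.153 and 0.0271, and 1 of the 6 libraries correlated best with its own number, so the numbers were not taken to pair them. The fold change of novel_circRNA_13360 ran from -7.26 to 2.69 (log2) with 1 library left out, and that of novel_circRNA_45473 from -8.96 to 9.35. Chao2 gave 27417 with 3 or more reads counted as listed. What caused these shifts was not tested. At these depths an entry of 2 reads cannot be told from none in a shallower library.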

Other observations

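The uncalled novel_circRNA_45473 shows how far a pattern of 2 listed libraries can move a fit. With all libraries its log2 fold change was 0.23 ± 0.32 (SE; edgeR quasi-likelihood test, adjusted p = 0.884). Without sham replicate 1 it was called higher after UVA (9.35, adjusted p = 3.69e-18), and without UVA replicate 3 lower (-8.96, adjusted p = 3.46e-15). Each of these fits leaves out 1 of the 2 libraries that list it.

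The deposited TPM exceeded the value that the count gives for 122 of 18658 entries of rare circRNAs (0.654%) and for 276 of 56271 other entries (0.490%). By library the rare share was 0.481% to 1.03% and the other share 0.436% to 0.535%.

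Identifier numbers ran up to 61516, of which 26209 (42.6%) were listed in the tables used here. Over 10 equal ranges of these numbers, rare circRNAs were 49.4% to 54.2% of those listed, against 51.9% in all. The sources used here do not say what the other numbers stand for.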
